A study of Bos taurus with 11 samples.

Results

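The transcripts described here encode the proteins of the cytosolic ribosome. They were taken by name, as every row whose bovine gene symbol begins with RPL or RPS and a number, together with RPSA and the stalk proteins RPLP0, RPLP1 and RPLP2. Symbols of the RPS6K kinases were left out. The annotation used for names holds 85 coding genes of this kind. Of these, 80 were listed in both deposited tables, 48 with names in RPL and 32 with names in RPS, among 8576 transcripts in the table of GATA3 KO and 12047 in the table of CDX2 KO. RPL3L, a form of RPL3 best known from muscle, was listed only in the table of CDX2 KO, and RPL10L, RPL22, RPS14 and RPS27 were not analysed here. All 80 passed the filter on low values (mean normalized count of at least 10) in both tables, so that no member was lost to it except RPL3L. The name rule also takes RPS19BP1, a protein that binds RPS19 and is not a ribosome subunit, and it leaves out FAU and RACK1, which are treated below.

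A ribosome is built from a large subunit, which holds the proteins named RPL and joins amino acids, and a small subunit, which holds the proteins named RPS and reads the mRNA. One copy of nearly every protein goes into each ribosome, so cells make them in balanced amounts, and their mRNAs are among the most abundant of a growing cell. These mRNAs begin with a terminal oligopyrimidine (TOP) tract, shared with several translation factors, through which their translation is regulated together. In the early embryo new ribosomes are made once the embryonic genome is active.

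Single bovine blastocysts of day 7, made in vitro, were sequenced after injection at the zygote stage with mRNA of BE3, a cytosine base editor that can turn a codon into a premature stop where a guide RNA directs it. All embryos carried the editor mRNA. The 3 WT control embryos received no guide RNA, the 4 GATA3 KO embryos received guides against GATA3, and the 4 CDX2 KO embryos received guides against CDX2. GATA3 and CDX2 are transcription factors of the trophectoderm, the outer layer of the blastocyst. Each Smart-seq2 library of polyadenylated RNA came from 1 whole embryo and mixes trophectoderm with inner cell mass, so fewer cells of a type and less RNA per cell cannot be told apart. The edit is made in the embryo itself, and the genotype of each library was not analysed here. The labels do not give a fertilization batch or the sire.

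Both tables hold the same 3 WT control embryos, so the 2 comparisons share their controls, and each table was normalized on its own. An embryo had between 150057 and 540775 recovered counts in the GATA3 table, and between 100731 and 662962 in the other. A level of 3 counts equals 4.53 to 29.8 CPM (counts scaled by the embryo's total), a floor that covers counting error only. The shallowest libraries of the second table were CDX2 KO embryos 3 (100731 counts) and 2 (218797 counts). GATA3 itself had normalized counts of 87.6, 71.3 and 80.8 in WT control embryos against 13.0, 12.9, 13.1 and 9.85 after GATA3 knockout. CDX2 was low throughout its table, with 14, 14 and 6 counts in controls against 3, 2, 2 and 8 after its own knockout. Of the trophectoderm markers, KRT8 had 308 counts or more in every embryo, whereas CDX2 was at 0 in 1 GATA3 KO embryo and IFNT2 at 0 in 2 CDX2 KO embryos. The numbers of the KO embryos are those of the deposited columns.

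Y-linked transcripts differed between embryos and are given first, because 4 of the members are X-linked. In the table of GATA3 KO, the WT control embryos held 50, 98 and 29 counts on 4 listed Y-linked genes, GATA3 KO embryos 3 to 5 held 0, 0 and 2, and embryo 6 held 68. In the table of CDX2 KO, the WT control embryos held 80, 149 and 46 counts, CDX2 KO embryos 2 to 4 held 0, and embryo 5 held 155. Thus every WT control embryo had Y-linked counts, and in each KO group a single embryo had more than 3. The presence of Y-linked counts and the knockout cannot be told apart within the other embryos, since no WT control embryo lacked them.

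The ribosomal protein transcripts took up a smaller part of the signal in 3 of the 4 GATA3 KO embryos. Of all normalized counts, 11.9%, 13.2% and 14.2% fell on the members in WT control embryos 1 to 3. In GATA3 KO embryos 3 to 6 the values were 8.92%, 9.12%, 10.6% and 12.4%. Embryos 3, 4 and 5 lay below all controls, and embryo 6, the one with Y-linked counts, lay within their range. The means were 13.1% ± 1.15 (SD, n = 3) and 10.3% ± 1.62 (SD, n = 4), a difference of -2.87 percentage points. In the table of CDX2 KO, the WT control embryos had 11.9%, 13.1% and 14.2%, and CDX2 KO embryos 2 to 5 had 10.1%, 9.19%, 12.0% and 13.4%. Embryos 2 and 3 were below the controls and embryos 4 and 5 within their range. The means were 13.1% ± 1.16 (SD, n = 3) and 11.2% ± 1.89 (SD, n = 4), a difference of -1.86 percentage points, which became -1.199 without embryo 3.

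**Figure D1:**
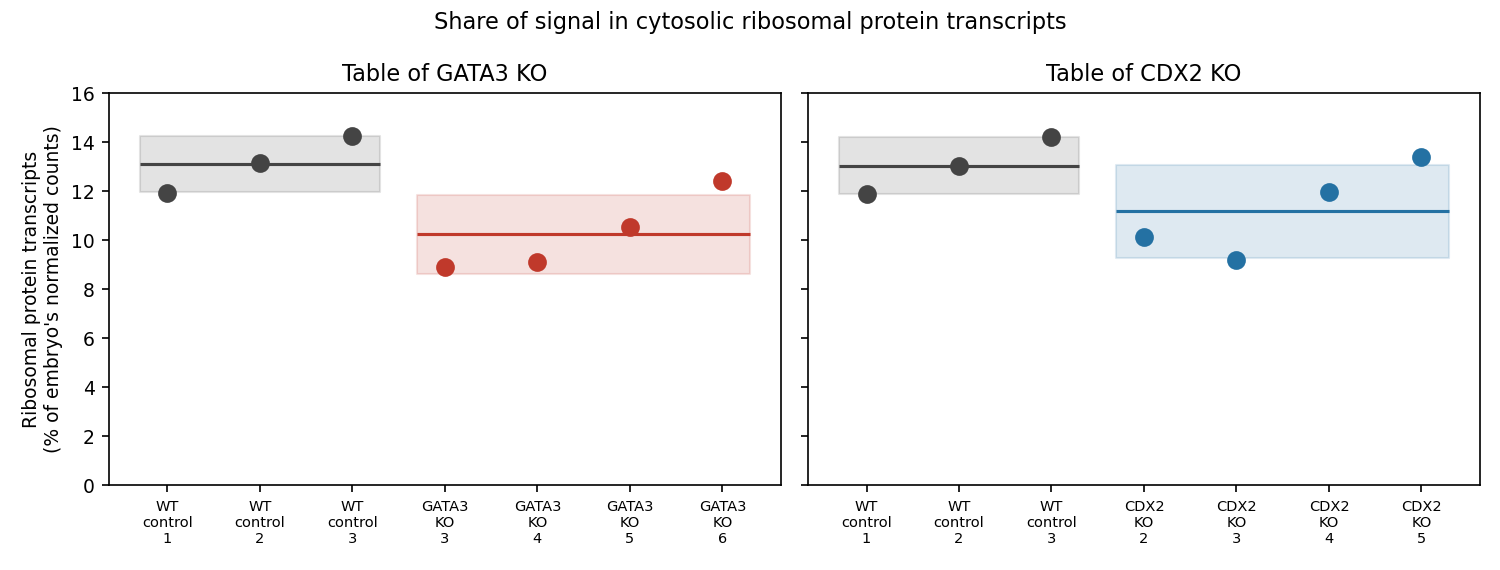
Percentage of each embryo's normalized counts on ribosomal protein transcripts, by embryo, for both tables; points are embryos, lines are group means and bands are ± 1 SD. GATA3 KO embryos 3 to 5 (8.92% to 10.6%) and CDX2 KO embryos 2 and 3 (10.1% and 9.19%) lie below the 3 WT control embryos, and the remaining KO embryos lie among them.

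In the comparison of GATA3 KO with WT control embryos, 67 of 80 ribosomal protein transcripts had a negative log2 fold change, the lowest at -0.91, and no single member passed the threshold in the main test. That test was limma on log2(normalized count + 1) with Benjamini-Hochberg adjustment over all 4271 transcripts tested, and a call needed an adjusted p not above 0.05 and a fold of 1.5 or more, or of 0.6 or less. By this rule 0 of 80 members were called lower and 0 higher, against 0.468% of all transcripts tested called lower and 1.55% called higher. The lowest adjusted p was 0.0518, for RPL7A. At an unadjusted p under 0.05, 25 of 80 members were lower and 0 were higher, where 7.84% of all transcripts were lower and 14.8% higher. For 21 members every GATA3 KO embryo lay below every WT control embryo, which held for 7.05% of all transcripts. For 0 members every KO embryo lay above, against 11.9% of all transcripts.

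The median log2 fold change of the 80 members was -0.36, beside 0.11 over all transcripts tested and 0.19 over 320 other transcripts with a mean of 100 or more. Fold changes here are KO minus WT control on the log2(normalized count + 1) scale. Rescaling the embryos by median ratios moved the median of all transcripts from 0.11 to 0.0065 and that of the members to -0.47. Of the 76 members outside the X chromosome, 67 had a negative fold change and 9 a positive one, with a median of -0.37. Large subunit members had a median of -0.43 (45 genes, 42 of them negative), and small subunit members had a median of -0.33 (30 genes, 25 of them negative). In embryo 6 the negative and positive members were about as many in each subunit, with 24 and 21 in the large and 15 and 15 in the small. The difference between the subunits was not tested.

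As a set, the members were low in GATA3 KO embryos 3, 4 and 5, whereas in embryo 6 their median was within the control range and single members were low. Relative to the WT control mean, the median deviation of the 76 autosomal members was -0.62, -0.58 and -0.39 in embryos 3 to 5 and -0.01 in embryo 6. The WT control embryos were at -0.05, -0.07 and 0.12. In embryos 3 to 5, 61, 68 and 55 of the 76 autosomal members lay below the lowest control, where 28.7%, 22.9% and 24.8% of all transcripts tested did. In embryo 6, 22 members (28.9%) lay below the control range and 26 (34.2%) above it, near the 23% and 34.1% of all transcripts. The median of all transcripts tested was 0.12, 0.12, 0.12 and 0.13 in the same embryos. The interquartile range of their deviations was 0.48, 0.44, 0.45 and 0.41 in GATA3 KO embryos 3 to 6, beside 0.80, 0.73, 0.66 and 0.65 for other transcripts with a mean of 100 or more. In WT control embryos it was 0.22, 0.21 and 0.17 beside 0.36, 0.33 and 0.35, so the members had the narrower range there too, and the difference was not tested.

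**Figure D2:**
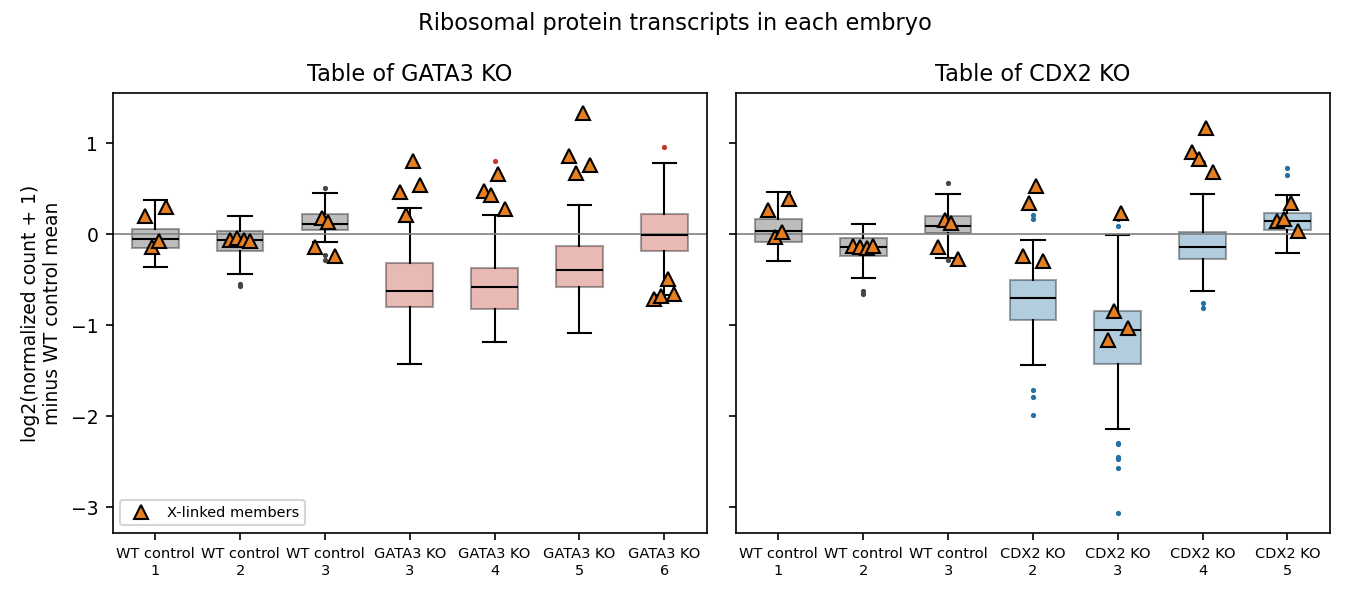
Log2 deviation of each ribosomal protein transcript from the WT control mean, by embryo, for both tables; boxes show the quartiles of the 76 autosomal members with whiskers to 1.5 times the interquartile range, and triangles are the 4 X-linked members. The autosomal boxes of GATA3 KO embryos 3 to 5 lie below 0 with the X-linked members above them, and in embryo 6 the X-linked members lie below the box.

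How many members were called depended on single embryos. Without embryo 6, limma called 9 members lower, where 1.1% of all transcripts were called lower, and 1 member higher, where 3.18% were. The 9 were RPL36, RPL7A, RPS18, RPL13A, RPS10, RPS15, RPS28, RPL34 and RPL27A, and the 1 higher was RPL39. Without WT control embryo 1, 4 members were called lower (RPL7A, RPS28, RPS18 and RPS10), where 1.08% of all transcripts were, and 0 higher, where 5.78% were. Leaving out any other single embryo gave 0. In those fits 0.0234% to 0.258% of all transcripts were called lower and 0% to 0.656% higher, so few calls were made at all. With a covariate for the presence of Y-linked counts, the KO term rests on embryo 6 alone against the controls, since it is the KO embryo counted as having them. The median of the members was then -0.02. Tests on the recovered counts called more members than limma. edgeR's quasi-likelihood test called RPL7A, RPS28, RPS18 and RPS10 lower, 4 members against 1.62% of all transcripts. DESeq2 called 12 lower, against 2.05% of all transcripts: these 4 and RPLP1, RPL36, RPL21, RPL35, RPL27A, RPL12, RPL28 and RPL26. Neither count test called a member higher, where 1.33% of all transcripts were called higher by edgeR and 1.72% by DESeq2.

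The members with the lowest fold changes in GATA3 KO embryos belong to both subunits. RPL7A, a large subunit protein, had normalized counts of 466, 621 and 656 in WT control embryos against 261, 253, 323 and 416 in GATA3 KO embryos 3 to 6. Its log2 fold change was -0.90 ± 0.24 (SE; limma, adjusted p = 0.0518), a fold of 0.535. All KO embryos lay below all controls, embryo 6 being the highest of them. RPL36, a small protein of the large subunit, had 315, 322 and 412 in controls and 129, 173, 168 and 306 in KO embryos, a log2 fold change of -0.91 ± 0.27 (SE; adjusted p = 0.0687). Embryo 6 was close to the lowest control, and embryos 3 to 5 lay far below it.

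RPS18, a small subunit protein of the head near the contact with the large subunit, had 562, 769 and 726 in controls and 304, 308, 391 and 541 in KO embryos, a log2 fold change of -0.86 ± 0.25 (SE; limma, adjusted p = 0.0634). RPS28, a short protein of the small subunit, had 219, 231 and 284 in controls and 114, 157, 138 and 153 in KO embryos, a log2 fold change of -0.80 ± 0.23 (SE; adjusted p = 0.0634). For RPS28, embryo 6 was as low as the others. RPS10, a protein of the small subunit's head, had 316, 365 and 458 in controls and 180, 184, 235 and 289 in KO embryos, a log2 fold change of -0.79 ± 0.24 (SE; adjusted p = 0.0762). The groups did not overlap for RPL7A, RPL36, RPS18, RPS28 or RPS10, which were chosen here as the 5 lowest.

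**Figure D3:**
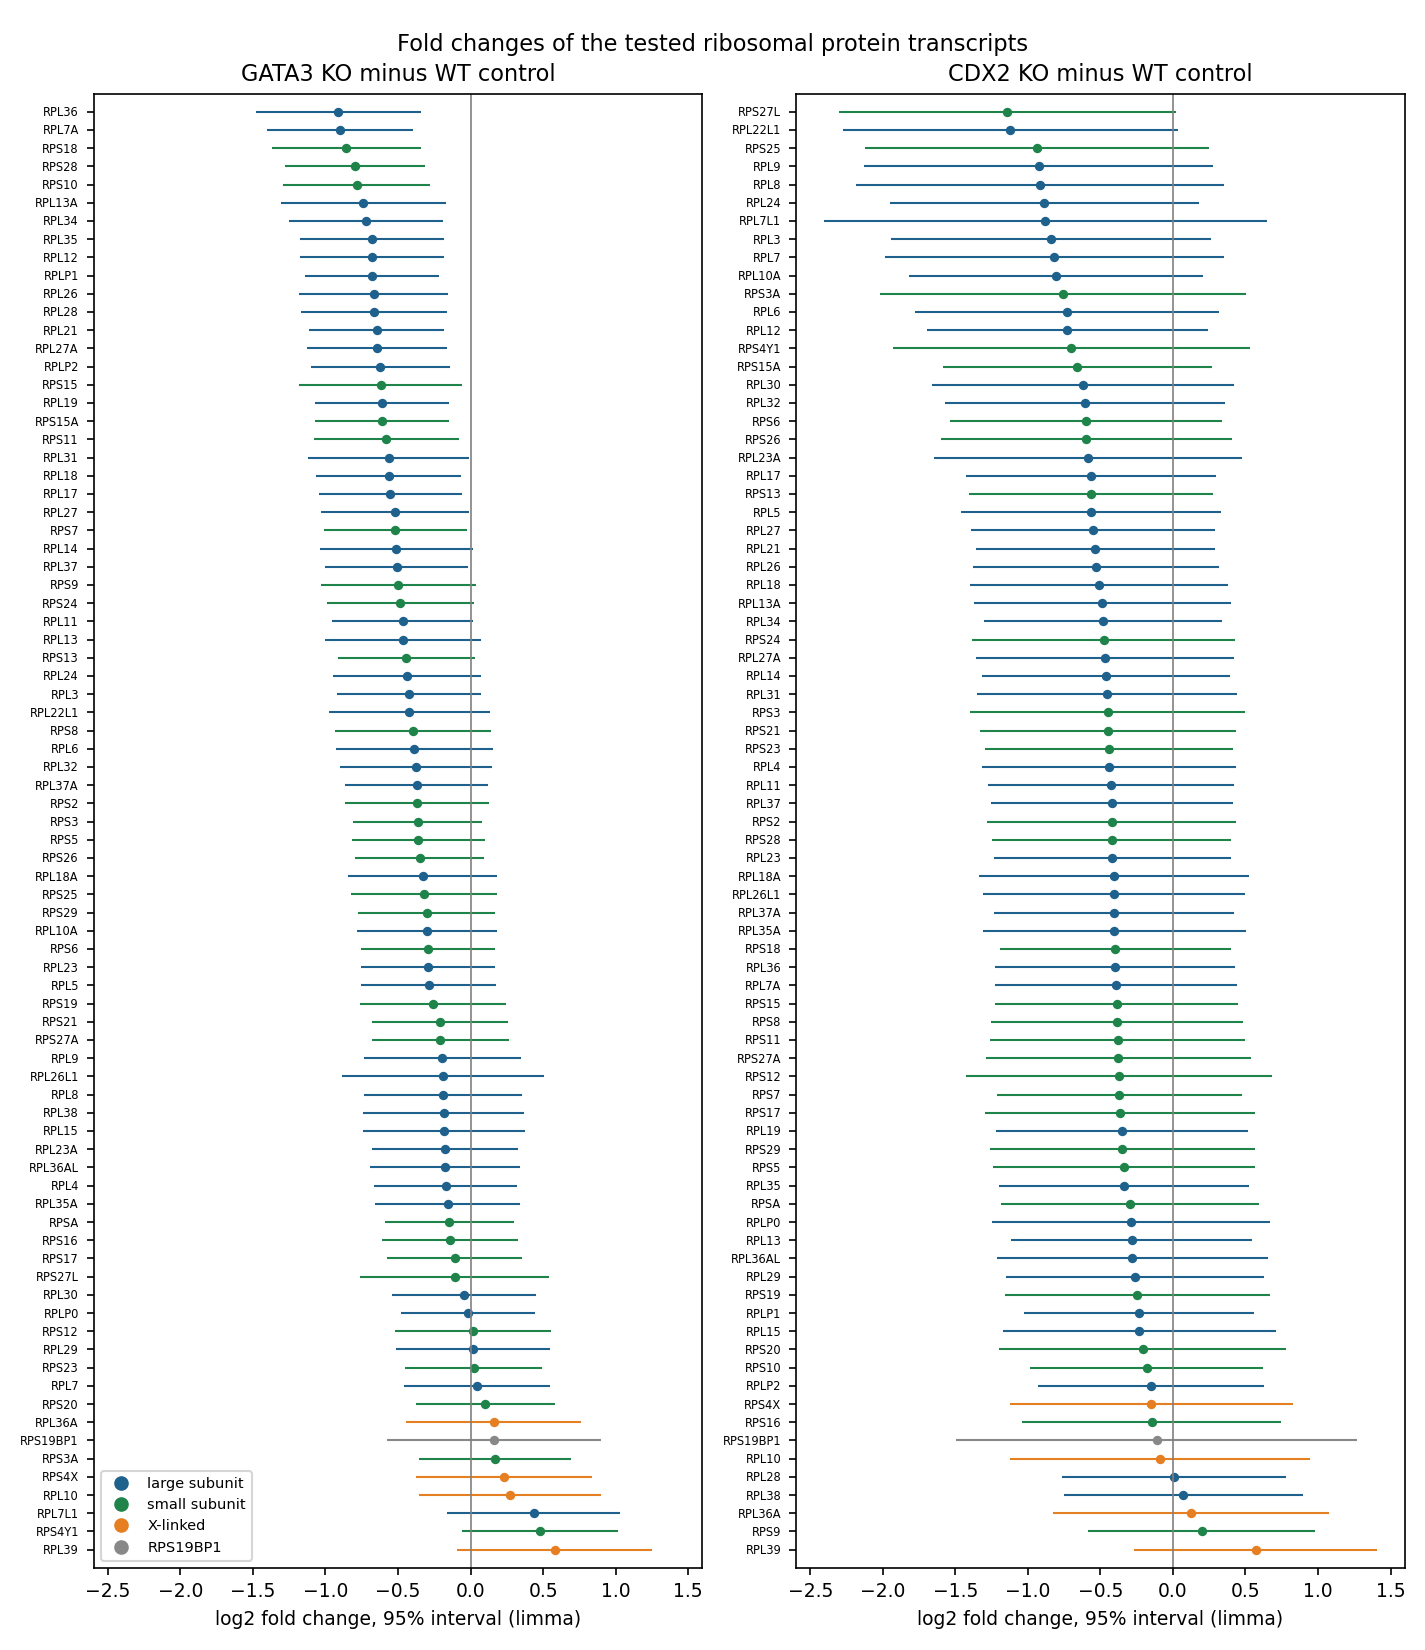
Log2 fold change (KO minus WT control) of each tested member with its 95% interval from limma, sorted within each table; colours mark the large subunit, the small subunit, the X-linked members and RPS19BP1. In GATA3 KO the intervals of 25 members, all of them lower, exclude 0, and in CDX2 KO the intervals are wider and all include 0.

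The stalk of the large subunit binds translation factors and is made of RPLP0, which anchors it, and of RPLP1 and RPLP2, which extend from it. RPLP0 had normalized counts of 907, 654 and 884 in WT control embryos against 692, 755, 842 and 920 in GATA3 KO embryos, a log2 fold change of -0.02 with a 95% interval from -0.48 to 0.45, and its groups overlapped. RPLP1 had 700, 706 and 808 in controls and 375, 423, 535 and 530 in KO embryos, a log2 fold change of -0.68 ± 0.22 (SE; limma, adjusted p = 0.0875). RPLP2 had 330, 355 and 441 in controls and 192, 240, 270 and 273 in KO embryos, a log2 fold change of -0.62 ± 0.23 (SE; adjusted p = 0.125). RPLP1 and RPLP2 were lower in all 4 KO embryos, embryo 6 included, and their groups did not overlap. The ratio of RPLP1 to RPLP0 within an embryo, which no size factor affects, was 0.772, 1.08 and 0.914 in controls and 0.542, 0.560, 0.635 and 0.576 in KO embryos. The ratio of RPLP2 to RPLP0 was 0.364, 0.542 and 0.499 in controls and 0.278, 0.318, 0.321 and 0.296 in KO embryos. Both ratios were lower in every KO embryo than in every control.

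RPL5 and RPL11 form a particle with the 5S ribosomal RNA that can also bind MDM2. RPL11 had 361, 388 and 381 in controls and 245, 209, 319 and 334 in GATA3 KO embryos, a log2 fold change of -0.47 ± 0.23 (SE; limma, adjusted p = 0.235), with no overlap. RPL5 had 442, 460 and 412 in controls and 344, 282, 405 and 419 in KO embryos, a log2 fold change of -0.29 ± 0.22 (SE; adjusted p = 0.460), and embryo 6 overlapped the controls. RPS6, the protein phosphorylated downstream of mTOR, had 525, 525 and 564 in controls and 410, 352, 517 and 494 in KO embryos, a log2 fold change of -0.29 with an interval from -0.76 to 0.17. RPS3 and RPS2, which lie where mRNA enters the small subunit, had log2 fold changes of -0.37 each. All KO embryos lay below the controls for RPS3 (599, 514, 582 and 715 against 756, 755 and 804). For RPS2, 3 of 4 did. RPSA, also known as the laminin receptor, had a log2 fold change of -0.15, RPL4, which lines the exit tunnel, one of -0.17, and RPS27A, made as a fusion with ubiquitin, one of -0.21. The intervals of these 3 included 0.

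The 4 X-linked members, RPL10, RPL36A, RPL39 and RPS4X, were high as a set in GATA3 KO embryos 3 to 5, where the autosomal members were low. In embryo 6 the X-linked members were low, while the autosomal median was -0.01. The X-linked median deviation was 0.51, 0.45 and 0.81 in embryos 3 to 5 and -0.67 in embryo 6. In embryos 3 to 5 these values lay above the WT control embryos (0.07, -0.06 and 0.00), and in embryo 6 all 4 members lay below them. RPS4X in embryo 4 lay within its control range. The same split was seen in 134 X-linked transcripts that are not members, with medians of 1.02, 0.96, 1.08 and -0.43. Embryos 3 to 5 are those with at most 2 Y-linked counts and embryo 6 had 68, and the part of this in the result was not tested. None of the 4 was called in the comparison of all embryos.

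RPL39, a short protein in the exit tunnel of the large subunit, showed the split most clearly. It had 178, 181 and 207 normalized counts in WT control embryos against 330, 299, 474 and 134 in GATA3 KO embryos 3 to 6, a log2 fold change of 0.58 with an interval from -0.09 to 1.25. Without embryo 6 it was called higher, at 0.93 (limma, adjusted p = 0.0366), and without embryo 5 its fold change was 0.33. RPL10, which completes the large subunit late in its assembly, had 526, 436 and 412 in controls and 631, 633, 828 and 278 in KO embryos, a log2 fold change of 0.27 that became 0.60 without embryo 6 and 0.078 without embryo 5. RPS4X, of the small subunit, had 568, 438.8 and 391.7 in controls and 671, 560, 779 and 291 in KO embryos, a log2 fold change of 0.23 that became 0.53 and 0.055 in the same way. RPL36A, of the large subunit, had 125, 133 and 155 in controls and 159, 185, 219 and 85.4 in KO embryos, a log2 fold change of 0.16 that became 0.44 and -0.011. In each of the 4, embryo 6 was the lowest of all 7 embryos and embryo 5 the highest.

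**Figure D4:**
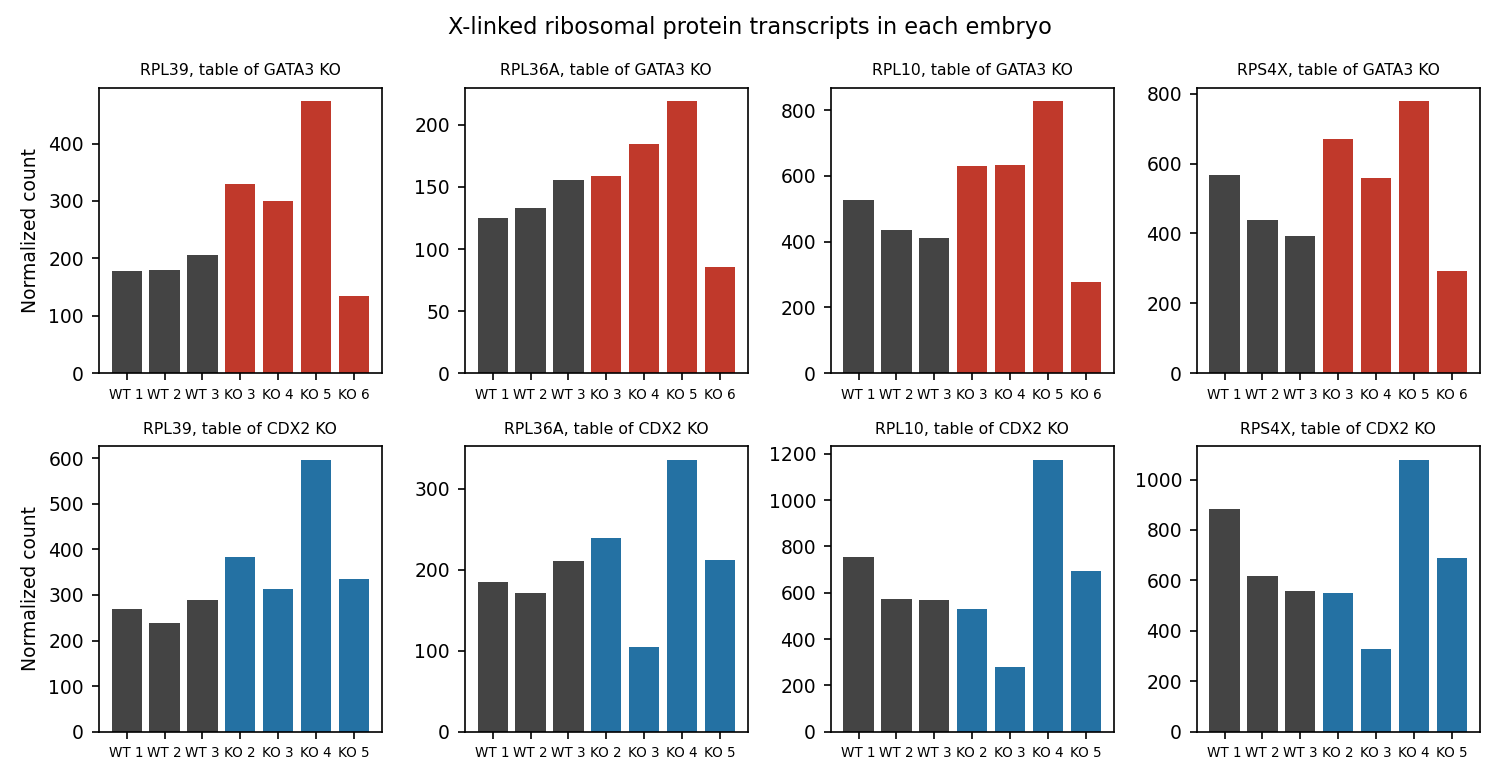
Normalized counts of the 4 X-linked members in each embryo, as bars from 0, with the table of GATA3 KO above and that of CDX2 KO below; grey is WT control, red GATA3 KO and blue CDX2 KO. GATA3 KO embryo 6 is lowest and embryo 5 highest for each member, and CDX2 KO embryo 4 is highest for each.

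Because the X-linked and autosomal members moved apart, the proportions of ribosomal protein transcripts differed between embryos. The X-linked members made up 4.63%, 4.02% and 3.51% of the member signal in WT control embryos, and 8.34%, 7.90%, 8.90% and 2.55% in the GATA3 KO embryos. The ratio of RPL39 to RPL37, both small proteins of the large subunit, was 0.592, 0.605 and 0.583 in controls. It was 1.65, 1.67 and 2.07 in embryos 3 to 5 and 0.449 in embryo 6. RPL36A and its autosomal paralog RPL36AL, which encode nearly the same protein, gave a ratio of 0.742, 1.03 and 0.800 in controls, 1.34, 1.44 and 1.52 in embryos 3 to 5 and 0.452 in embryo 6. For both pairs the controls lay between embryo 6 and the other KO embryos. RPS4Y1, which is on chromosome 23 in the annotation and not on the Y chromosome, had 79.7, 75.7 and 87.0 in controls and 85.4, 124, 97.7 and 158 in KO embryos, a log2 fold change of 0.48 with an interval from -0.06 to 1.02. Its highest value was in embryo 6, where RPS4X was lowest, and the ratio of RPS4X to RPS4Y1 was 7.13, 5.80 and 4.50 in controls against 7.86, 4.53, 7.98 and 1.85 in KO embryos.

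Paralogs of ribosomal proteins showed no common direction in GATA3 KO embryos. RPL7L1, a relative of RPL7 that acts in ribosome assembly, had 71.0, 41.1 and 79.3 in WT control embryos against 75.3, 95.2, 63.1 and 107 in GATA3 KO embryos, a log2 fold change of 0.43 with an interval from -0.16 to 1.03, and 0.15 without WT control embryo 2. RPL22L1, a paralog of RPL22, had a log2 fold change of -0.42, and RPS27L, a paralog of RPS27, had one of -0.11. RPL26L1 had a log2 fold change of -0.19, whereas RPL26 itself had one of -0.67 ± 0.24 (SE; limma, adjusted p = 0.125) with no overlap. RPS19BP1 had one of 0.16. The groups overlapped for each paralog named. Genes of this family have many near-identical copies and processed pseudogenes, and how reads that fit several places were counted is not given in the sources used here, so small differences between paralogs are uncertain.

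Other components of the ribosome and of translation gave mixed values. Of the components and partners named outside the RPL and RPS series, FAU, a ribosomal protein made as a fusion with a ubiquitin-like protein, had a log2 fold change of -0.37. RACK1, a scaffold on the small subunit, had one of -0.22. For both, embryos 3 to 5 lay below every control and embryo 6 did not. BTF3 and NACA, which together form a complex at the exit tunnel, had 0.74 (limma, adjusted p = 0.0916) and 0.35. None of these 4 was called. Among 21 tested genes of the TOP mRNA list, most of them translation factors, 1 rose and 0 fell, against 1.55% and 0.468% of all transcripts. The one that rose was EIF4A2, an RNA helicase of translation initiation, at 1.71 (adjusted p = 0.0136). The list's median was 0.14. EEF1A1, which brings tRNA to the ribosome, was at 0.74 and NPM1, a nucleolar chaperone, at 0.92, while EEF2, which moves the ribosome along, was at -0.50, and none of these 3 passed the test.

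Ribosome assembly factors, 23 of them tested, had a median of 0.26 with 0 called in either direction. The 5 tested genes of the list of TOP regulators had a median of -0.24 with 0 called. Of 73 tested mitochondrial ribosomal proteins, which serve the separate ribosome of mitochondria, 3 rose and 0 fell, where 1.55% of all transcripts were called higher and 0.468% lower. These were MRPL39 at 1.68 (limma, adjusted p = 0.0211), MRPL3 at 1.47 (adjusted p = 0.0468) and, with the smallest change of the 3, MRPL53 (adjusted p = 0.0483). Their median was 0.27, beside 0.11 for all transcripts tested and -0.36 for the cytosolic members. In GATA3 KO embryos 3 to 5 the mitochondrial list had median deviations of 0.22, 0.31 and 0.16, where the autosomal cytosolic members were at -0.62, -0.58 and -0.39. The difference between these lists was not tested.

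**Figure D5:**
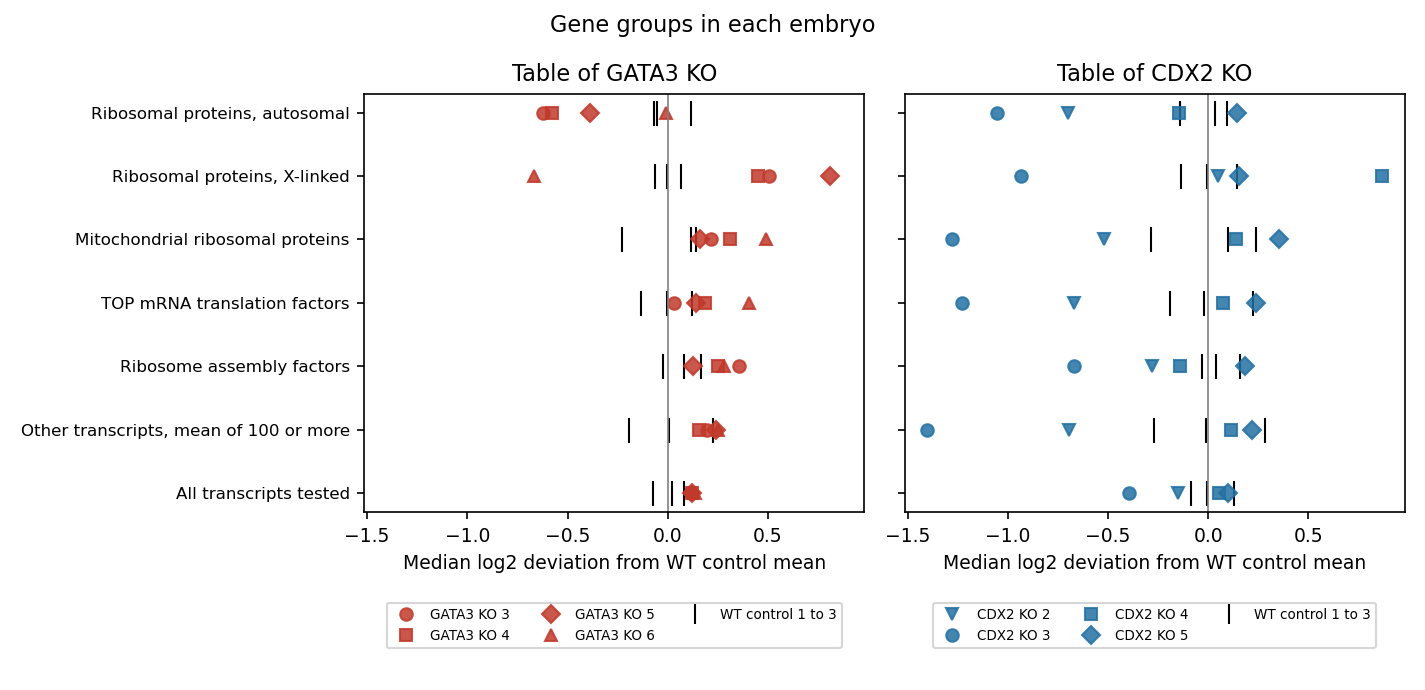
Median log2 deviation from the WT control mean of 7 gene groups, by embryo, for both tables; ticks are WT control embryos and symbols are KO embryos. In the table of GATA3 KO the autosomal ribosomal proteins have embryos 3 to 5 below the controls and embryo 6 among them, and in the table of CDX2 KO embryos 2 and 3 are low in most groups.

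The summed trophectoderm markers of the list used here, 11 of 12 listed, ran from 3446 to 7842 normalized counts in WT control embryos and from 3760 to 5420 in GATA3 KO embryos, so the groups overlapped. Of that list CDX2 was at 0 in 1 GATA3 KO embryo. The inner cell mass list, 4 of 8 listed, ran from 123 to 177 and from 69.5 to 206, and NANOG was at 0 in 1 KO embryo. Sums of cumulus cell markers, 2 of 10 listed, did not exceed 15.5, and those of blood markers, 1 of 4 listed, 8.65, in any embryo of this table. Primitive endoderm markers, 6 of 7 listed, ran from 814 to 995 in controls and from 560 to 1280 in KO embryos, with GATA4 at 0 in 1 KO embryo. None of these sums separated embryos 3 to 5 from the others.

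In the comparison of CDX2 KO with WT control embryos, ribosomal protein transcripts were lowest in embryos 2 and 3, where other abundant transcripts were as low. Of the 76 autosomal members, 71, 73, 35 and 5 lay below the lowest control in embryos 2 to 5, and 1, 0, 6 and 30 above the highest. Of all transcripts tested 37.2%, 47.7%, 24.2% and 18.6% lay below in the same embryos, and of the other abundant ones 73.4%, 91.7%, 18.3% and 10.6%, against 93.4%, 96.1%, 46.1% and 6.58% of the members. Above the highest control lay 23.9%, 26.1%, 25.1% and 24.6% of all transcripts tested. Of the other abundant ones 4.77%, 2.76%, 24.4% and 36.7% did, against 1.32%, 0%, 7.89% and 39.5% of the members. Of 80 members 0 were called lower and 0 higher by limma with Benjamini-Hochberg adjustment, and of the 5719 transcripts tested 0% were called lower and 0% higher. At an unadjusted p under 0.05 there were also 0 members, against 1.54% of all transcripts lower and 1.73% higher. edgeR and DESeq2 each called 0 members, where 0.0175% and 0.07% of all transcripts were called lower. The lowest adjusted p of a member was 0.900. Every KO embryo lay below every control for 3 members, RPS13, RPL21 and RPL34, against 3.36% of all transcripts, and above for 1, RPL39, against 2.52%. Both numbers are near the share in all transcripts.

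The median log2 fold change of the 80 members was -0.42 in CDX2 KO embryos, beside -0.15 for all transcripts tested and -0.44 for 398 other transcripts with a mean of 100 or more. With the Y-linked covariate, where the KO term rests on embryo 5 alone, it was 0.15. It was -0.03 after quantile normalization, -0.28 with equal totals outside the members, and -0.23 without embryo 3. Median deviations of the autosomal members were -0.70, -1.05, -0.14 and 0.14 in CDX2 KO embryos 2 to 5. Other transcripts with a mean of 100 or more were at -0.70, -1.40, 0.11 and 0.22. Thus embryos 2 and 3 were low in both, with embryo 3 lower in the other transcripts than in the members. These were also the shallowest libraries of the table. Trophectoderm markers, all 12 listed, summed to 3964 and 2454 in embryos 2 and 3, to 8070 and 6523 in embryos 4 and 5, and to 4833 or more in controls, and IFNT2 was at 0 in 2 KO embryos. Inner cell mass markers, 5 of 8 listed, summed to 224, 119, 272 and 273 in embryos 2 to 5 and to 153 to 243 in controls, with NANOG at 0 in 1 KO embryo. Primitive endoderm markers, all 7 listed, summed to 1582, 878, 825 and 1423 in embryos 2 to 5 and to 1252 to 1365 in controls. Cumulus markers, 9 of 10 listed, summed to 73.5 and 67.6 in embryos 2 and 3 and to at most 47.0 in controls. These sums rest on few counts, 60 and 29 in embryos 2 and 3 and 46, 35 and 41 in controls. Oocyte markers, 7 of 8 listed, summed to 40.4, 48.9, 63.0 and 24.2 in embryos 2 to 5 and to at most 39.0 in controls. Blood markers, 3 of 4 listed, summed to 51.3 (22 counts) in embryo 3, at most 17.2 in the other KO embryos and at most 20.54 (26 counts) in controls. The part of depth and of these markers in the result was not tested.

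The lowest fold changes in CDX2 KO embryos were those of the paralogs RPS27L and RPL22L1 and of RPS25, RPL9 and RPL8. RPS27L had 178, 94.8 and 127 normalized counts in WT control embryos against 31.9, 32.6, 73.0 and 147 in CDX2 KO embryos 2 to 5, a log2 fold change of -1.14 with a 95% interval from -2.30 to 0.02. RPL22L1 had 112, 72.7 and 104 in controls and 38.0, 16.3, 55.6 and 97.7 in KO embryos, a log2 fold change of -1.12 with an interval from -2.28 to 0.03. Embryo 5 lay within the control range for both. RPS25, of the small subunit, had 681, 547 and 620 in controls and 186, 142, 551 and 714 in KO embryos, at -0.94. RPL9 and RPL8, of the large subunit, were at -0.93 and -0.92. For these 3 members embryos 2 and 3 lay far below the controls and embryos 4 and 5 did not. RPL8 in embryo 3 had 130.5, against 644 to 995 in controls. Without embryo 3 the fold changes were -0.36 for RPL8, -0.47 for RPL9, -0.55 for RPS25 and -0.67 for RPL22L1.

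At the other end, RPL39 had 269, 239 and 290 in WT control embryos against 384, 312, 597 and 336 in CDX2 KO embryos, above all controls in all 4, with a log2 fold change of 0.57 and an interval from -0.27 to 1.41, and of 0.37 without embryo 4. RPS9, of the small subunit, had 463, 441 and 338 in controls and 474, 461, 445 and 503 in KO embryos, at 0.20, and at 0.058 without WT control embryo 3. Against the same controls, in the other table, RPS9 had 316, 346 and 247 and GATA3 KO embryos had 182, 152, 276 and 263, at -0.50. RPL36A was at 0.12, RPL38 at 0.07 and RPL28 at 0.01. RPL28 was nearly level across the libraries, at 348 to 434 in controls and 374 to 417 in KO embryos, embryos 2 and 3 included.

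The transcripts of the stalk and of the 5S particle were lower in CDX2 KO embryos 2 and 3 than in every control. RPLP0 had 1403, 895 and 1245 in WT control embryos against 754, 550, 1387 and 1423 in CDX2 KO embryos, a log2 fold change of -0.29. RPLP1 was at -0.23 and RPLP2 at -0.15. The ratio of RPLP1 to RPLP0 was 0.749, 1.05 and 0.900 in controls against 1.07, 1.29, 0.744 and 0.713 in KO embryos, and that of RPLP2 to RPLP0 was 0.351, 0.522 and 0.482 against 0.585, 0.763, 0.361 and 0.353. Embryos 2 and 3 lay above the controls in both ratios. RPL5 was at -0.56, RPL11 at -0.43, RPS6 at -0.60, RPS3 at -0.45, RPS2 at -0.42, RPL4 at -0.44, RPSA at -0.30 and RPS27A at -0.38. Each interval included 0. Without embryo 3, RPLP0 was at -0.024, RPLP1 at -0.13, RPS6 at -0.32, RPS3 at -0.13, RPS2 at -0.25, RPL4 at -0.27, RPSA at -0.11 and RPS27A at -0.14. Without embryo 5, RPLP0 was at -0.48, RPSA at -0.45 and RPS27A at -0.58. RPL26 was at -0.53, RPL26L1 at -0.41, RPL7L1 at -0.88 (-0.15 without embryo 3) and RPS19BP1 at -0.11. RPL3L was close to the floor, with 3, 2 and 0 counts in controls and 7, 1, 3 and 7 in KO embryos, and was not tested.

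Of the CDX2 KO embryos, embryo 4 had the highest X-linked members. Their median deviation was 0.05, -0.94, 0.87 and 0.16 in embryos 2 to 5, while the autosomal members were at -0.70, -1.05, -0.14 and 0.14. The 160 X-linked transcripts that are not members had medians of 0.57, 0.21, 1.13 and 0.14. In embryo 3 the X-linked members were thus low where the other X-linked transcripts were not, and this difference was not tested. RPL10 had 756, 571 and 570 in WT control embryos and 529, 280, 1175 and 694 in KO embryos, and RPS4X had 883, 617 and 557 in controls and 550, 329, 1079 and 687 in KO embryos. The mean differences were -0.09 and -0.15 with intervals that included 0, and both turned positive under DESeq2, at 0.16 and 0.042. The ratio of RPL39 to RPL37 was 1.28, 1.34 and 1.61 in embryos 2 to 4, which lacked Y-linked counts, and 0.746 in embryo 5, which had them. All 4 lay above the controls, which did not exceed 0.607. The ratio of RPL36A to RPL36AL was 1.56, 0.900, 1.47 and 0.686 against 0.710, 0.986 and 0.797 in controls, with embryos 2 and 4 above them. The X-linked share of the member signal was 6.26%, 4.75%, 7.61% and 4.04%, beside 3.53% to 4.62% in controls.

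The lists of translation and ribosome genes had negative medians in the CDX2 KO comparison as well. The TOP mRNA list had a median of -0.49, assembly factors of -0.28, TOP regulators of -0.49 and mitochondrial ribosomal proteins of -0.44, with 0 called in each list by limma. In embryos 2 and 3 the mitochondrial list had median deviations of -0.52 and -1.28, and in embryos 4 and 5 of 0.14 and 0.35. The GATA3 KO and CDX2 KO values are given side by side only, because the WT control embryos are shared.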

How the data were processed

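Reads were processed by the authors with Trimmomatic, HISAT2 (genome ARS-UCD1.2) and featureCounts. The 2 deposited tables give, as the signal of each embryo, its DESeq2-normalized counts, that is counts divided by a size factor. The deposited columns of fold changes (log2), standard errors, test scores and p-values hold the authors' comparisons and were not used. Every column of sample values was used. In 100.0% of cases the values were whole multiples of 1 step (tolerance 0.01 counts), which gave the counts. Over 8567 shared transcripts the same WT control libraries held 1.78 to 1.85 times more counts in the table of CDX2 KO, so tests stayed within a table. Accessions were named through RefSeq (ARS-UCD2.0), 98.6% in each table, and the chromosome served only to mark X-linked genes.

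Groups were compared with limma 3.58.1 (R 4.3.3, trended prior, two-sided) on log2(value + 1), where a transcript's mean reached 10. The test took the unit found in the tables. Alternatives were edgeR 4.0.16 and DESeq2 1.42.0 on the counts, other pseudocounts, filters and scalings, a Y-linked covariate (more than 3 counts) and leaving out each embryo. The code was tested on simulated data. Python 3.11.15, pandas 2.3.3 and matplotlib 3.10.9 made the summaries. Members and lists were chosen with earlier results of these data known. Named genes were the 5 lowest and 5 highest members by fold change in each table and members fixed by role; the part of that rule that needs coding lengths was not applied, since no lengths were used here, and levels are not compared between genes. Other members are named where a count of calls includes them. One gene of the lists is not reported here.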

Additional observations from a re-analysis of the deposited data

Results flagged for a closer look

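Of the named members, RPS9 was the one whose embryos moved apart in the 2 comparisons, and the other members were not searched. Every GATA3 KO embryo lay below the WT control mean and every CDX2 KO embryo above it. In each table only 2 of the 4 KO embryos lay outside the control range. Its mean log2 deviation was -0.50 in GATA3 KO and 0.20 in CDX2 KO embryos, the latter 0.058 without WT control embryo 3. The difference between the 2 knockouts was not tested, and both share the WT control embryos. Among the sets of 4 KO embryos examined for named members, ratios and summary values, 40 in each table, GATA3 KO embryo 6 stood apart from the other 3 in 3 related values, its gap exceeding Dixon's 95% limit for 4 samples. The X-linked share of the member signal was 2.55% in it (7.90% to 8.90% in the others). The ratio of RPL36A to RPL36AL was 0.452 (1.34 to 1.52 in the others). The median deviation of X-linked transcripts that are not members was -0.43 (0.96 to 1.08 in the others). Embryo 6 also held 68 Y-linked counts, and the part of this was not tested. Chance alone exceeds the limit in about 1 in 20 such sets, and in the sets examined no CDX2 KO embryo exceeded it. The ratio of RPL26L1 to RPL26 was not among them. It was 0.0938 in CDX2 KO embryo 3, on 9 counts of RPL26L1, and 0.119 to 0.121 in the other CDX2 KO embryos.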

How the results depend on the processing

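With 3 and 4 embryos a group and totals from 100731 counts, the smallest differences could not be resolved, and paralogs with few counts are the least certain. No paired analysis was possible because KO columns are numbered otherwise than the replicates in the labels, and nothing pairs a KO embryo with a WT control embryo. The number of members called in GATA3 KO was 0 with limma, 12 with DESeq2, 4 with edgeR, 3 with equal totals outside the members, 5 with a mean of at least 100, 1 with a pseudocount of 5, 2 with quantile normalization and 5 with rescaling by median ratios, each of them lower. Of all transcripts, 0.468%, 2.05%, 1.62%, 1.15%, 3.29%, 1.03%, 1.33% and 1.24% were called lower in the same order. The number stayed 0 without the filter on low values and with a pseudocount of 0.1, where 0.84% and 0.351% of all transcripts were called lower. A fold change of 2 or 0.5, which is stricter than the main threshold, also gave 0. Leaving out single embryos gave 0 to 10. Doing so turned, or moved by over 1.5 times, the fold change of 15 of 27 named members in GATA3 KO and of 24 of 27 in CDX2 KO, 19 of them without CDX2 KO embryo 3. The stricter mean tests fewer transcripts, and for the other settings the cause was not tested. The median over members was -0.018 in GATA3 KO and 0.15 in CDX2 KO with the Y-linked covariate, under which the KO term rests on 1 embryo (GATA3 KO embryo 6 or CDX2 KO embryo 5) taken to vary like the others, and kept its sign elsewhere, the CDX2 KO value being -0.031 after quantile normalization.

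For the 27 named members in GATA3 KO, 254 of 265 values under other settings kept their direction. The 11 that turned did so with the Y-linked covariate, which gave -0.71 for RPL10, -0.68 for RPL36A, -0.66 for RPS4X, -0.49 for RPL39, 0.41 for RPL26L1, 0.30 for RPL4, 0.19 for RPLP0, 0.11 for RPS2, 0.11 for RPSA, 0.020 for RPS27A and 0.75 for RPS27L. Leaving out single embryos turned RPLP0 (-0.17 to 0.068), RPL36A (-0.011 to 0.44), RPL26L1 (-0.39 to 0.0055), RPS27L (-0.40 to 0.079) and RPS19BP1 (-0.055 to 0.44).

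In CDX2 KO, 229 of 265 values kept their direction. With the Y-linked covariate the KO term rests on embryo 5 alone. The covariate gave 0.15 for RPL10, 0.039 for RPL11, 0.043 for RPL22L1, 0.055 for RPL26, 0.25 for RPL26L1, 0.15 for RPL4, 0.15 for RPL5, 0.37 for RPL7L1, 0.23 for RPL8, 0.18 for RPL9, 0.29 for RPLP0, 0.73 for RPS19BP1, 0.16 for RPS2, 0.22 for RPS25, 0.23 for RPS27A, 0.19 for RPS27L, 0.095 for RPS3, 0.032 for RPS4X, 0.083 for RPS6 and 0.18 for RPSA. RPL10 turned to 0.16 with DESeq2, 0.15 with edgeR, 0.055 with equal totals, 0.32 with quantile normalization and 0.044 with median ratios. RPS19BP1 turned to 0.29 with DESeq2, 0.29 with edgeR, 0.022 with equal totals and 0.012 with median ratios. RPS4X turned to 0.042 with DESeq2, 0.026 with edgeR and 0.22 with quantile normalization, which also gave 0.070 for RPLP1, 0.255 for RPLP2, 0.020 for RPS27A and 0.050 for RPSA. Leaving out single embryos turned RPL28 (-0.075 to 0.084), RPL38 (-0.073 to 0.30), RPL36A (-0.11 to 0.45), RPS4X (-0.43 to 0.14), RPL10 (-0.42 to 0.27) and RPS19BP1 (-0.41 to 0.57).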
